A study of Mus musculus with 6 samples.

Results

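The 4 probes described here for circular RNAs (circRNAs) of 3 signalling genes of striatal neurons were measured in the mouse nucleus accumbens after cocaine conditioned place preference (CPP). They were chosen by probe name: ASCRP4008264 and ASCRP4007939 for Arpp21, ASCRP4003468 for Pde7b and ASCRP4007577 for Rgs7bp, 4 of the 14236 circRNA probes on the array. One other annotated Arpp21 probe, ASCRP4001808, is given beside them because it reports on the same host gene, which makes 5 probes in all. Host genes were known for 681 probes, so that further circRNAs of these genes may lie among the probes without an annotation.

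Cocaine CPP is a test in which an animal comes to prefer a compartment that was paired with the drug. The comparison used 6 nucleus accumbens samples of adult male C57BL6 mice (C57Bl/6J in the study's methods), 3 labelled cocaine CPP (replicates 2, 3 and 4) and 3 labelled control (replicates 1, 5 and 6), which the study describes as saline. Tissue was taken after the preference test, RNA was digested with RNase R to deplete linear RNA, and each sample was hybridised to 1 single-colour array. The labels do not say whether a sample was 1 animal or a pool, so the p-values measure the spread between these samples. The controls share the strain, sex and tissue of the cocaine CPP samples and no allele or transgene is given for either group.

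A circRNA forms when the end of a downstream exon is spliced back to the start of an upstream exon, which leaves a closed ring without a cap or a poly(A) tail. Striatal projection neurons receive dopamine, and their dopamine receptors raise or lower cAMP and thereby the activity of protein kinase A (PKA). Arpp21 encodes a cAMP-regulated phosphoprotein, also called regulator of calmodulin signalling, that in its PKA-phosphorylated form binds calmodulin and restrains the phosphatase calcineurin; a longer product of the gene is an RNA-binding protein. Pde7b encodes a phosphodiesterase that degrades cAMP, and Rgs7bp encodes a membrane anchor for the RGS proteins of the R7 family, which shorten G protein signals. These roles belong to the proteins, and the arrays measured circRNAs from the same genes.

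The probes are 60 bases long and are shown because the values below rest on them, and because the circRNAs come from 1 list of RNAs bound by HuD, a neuronal RNA-binding protein that favours sequences rich in A and U. Capitals mark each match, on either strand, to ATTTA, which is a pentamer of AU-rich elements, to TTTTT, which is a run of T, or to the repeat TGTGT. All 5 sequences are those of the study's HuD-bound list, on which all 5 probes stand.
Arpp21, ASCRP4008264: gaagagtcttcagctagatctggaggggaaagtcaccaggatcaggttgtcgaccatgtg
Arpp21, ASCRP4007939: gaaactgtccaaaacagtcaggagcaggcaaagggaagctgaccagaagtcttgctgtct
Arpp21, ASCRP4001808: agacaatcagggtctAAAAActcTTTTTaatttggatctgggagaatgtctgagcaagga
Pde7b, ASCRP4003468: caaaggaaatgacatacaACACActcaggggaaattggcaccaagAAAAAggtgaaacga
Rgs7bp, ASCRP4007577: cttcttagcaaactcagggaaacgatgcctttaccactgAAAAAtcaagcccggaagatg

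None of the 5 probes held ATTTA, which 4.68% of the 684 probe sequences in the study's annotation held as printed and 3.65% on the other strand. TTTTT stood as printed in ASCRP4001808 alone, against 3.65% of the annotated probes. Its reverse complement stood in ASCRP4001808, the Pde7b probe and the Rgs7bp probe, against 8.92%, and that of TGTGT in the Pde7b probe alone, against 6.14%. The Pde7b and Rgs7bp probes had no match as printed, and which strand is that of the circRNA was not checked. These letters describe a window around a splice junction and not the whole circRNA. G and C made up 51.7% of ASCRP4008264, 50% of ASCRP4007939, 38.3% of ASCRP4001808, 41.7% of the Pde7b probe and 45% of the Rgs7bp probe, against a median of 45% and quartiles of 42.9% and 48.3% over the annotated probes. Among these 5 probes and 3 probes of R3hdm1, the paralogue of Arpp21, the longest run of bases shared by any of the 28 pairs was 9, and the 3 Arpp21 probes shared at most 7.

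The annotation gave all 5 circRNAs as exonic. ASCRP4008264 (mmu_circRNA_010556) spans chr9:112183495-112187766 on the minus strand, ASCRP4007939 (mmu_circRNA_45179) chr9:112143309-112183584 and ASCRP4001808 (mmu_circRNA_018301) chr9:112157690-112185769. The Pde7b circRNA (mmu_circRNA_21737) spans chr10:20418732-20443369 and the Rgs7bp circRNA (mmu_circRNA_26912) chr13:104964084-104982996. The build of these coordinates is not named in the annotation, and all 5 spans lie within their host gene in the RefSeq table of GRCm38.p6. ASCRP4008264 and ASCRP4007939 share 90 bases of span, which is 2.11% of the first and 0.223% of the second, so their spans are nearly separate. ASCRP4001808 shares 2275 bases with ASCRP4008264, or 53.3% of ASCRP4008264 and 8.10% of itself, and 25895 bases with ASCRP4007939, or 64.3% of ASCRP4007939 and 92.2% of itself. The microRNA gene Mir128-2 lies inside Arpp21 as well, and 0 of the 3 circRNA spans enclose it.

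**Figure D1:**
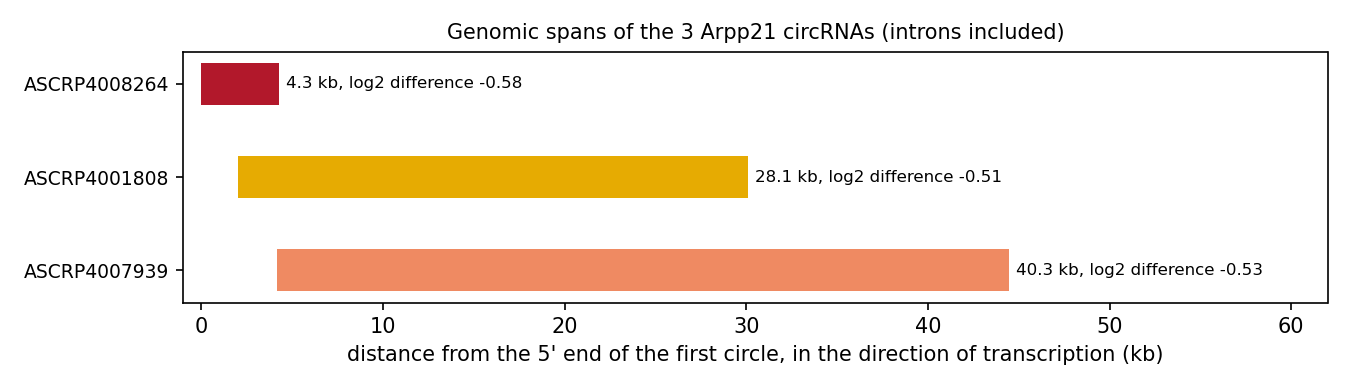
Genomic spans of the 3 Arpp21 circRNAs, introns included, as distance in kb from the 5' end of the first circRNA in the direction of transcription; the text beside each bar gives its length and its log2 difference, cocaine CPP minus control. ASCRP4008264 and ASCRP4007939 meet end to end with a short overlap, and their differences are -0.58 and -0.53.

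Signal was read as the background-subtracted intensity of each spot, on the log2 scale, relative to the 75th percentile of the circRNA probes of the same array. The test took in 12956 of the 14236 circRNA probes, those that the scanner software had called well above background on 3 or more arrays, and no circRNA spot was saturated. Cocaine CPP replicate 3 was the dimmest array, where 77.8% of circRNA probes were so called, while the other 5 arrays had 87.8% to 93.2%. The scanner output gives each array a position code, which was read here as slide row and column. On this reading the 3 control arrays and cocaine CPP replicate 2 stood in the first row and cocaine CPP replicates 3 and 4 in the second. Slide row and group are thus partly confounded. No slide identifier was used, so whether all 6 arrays shared 1 slide was not checked. On each of the 6 arrays all 5 probes were so called, at a signal 4.34 to 62 times the local background. Probes differ in how strongly they bind, so no order of levels is given between them.

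The 4 members were all lower after cocaine CPP in their group means, by 0.32 to 0.58 on the log2 scale (3 arrays per group), and none had an adjusted p under 0.05 in limma, as for 0% of the 12956 probes tested (101 probes had an unadjusted p under 0.05). Their median log2 difference, cocaine CPP minus control, was -0.50, and that of all probes tested was -0.02. The arrays of the 2 groups did not overlap for 1 of the 4, ASCRP4008264 of Arpp21, against 2.42% of all probes tested that were lower without overlap. For each of the 5 probes, all 3 cocaine CPP arrays lay below the median of the 3 control arrays, which held for 12.5% of all probes tested.

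ASCRP4008264 reports the Arpp21 circRNA with the shortest genomic span of the 3. Its relative log2 signal was 1.41, 1.94 and 1.78 in cocaine CPP replicates 2, 3 and 4, and 2.42, 2.37 and 2.09 in control replicates 1, 5 and 6. Each cocaine CPP array was thus below each control array. Before scaling, the processed signal was 785, 421 and 857 intensity units in cocaine CPP and 1378, 1637 and 731 in control, where control replicate 6 lay below 2 of the cocaine CPP arrays. The 75th percentile of that array was 172 intensity units, against 296 and 249 on those 2. The group means were 1.71 ± 0.28 and 2.29 ± 0.18 (SD, n = 3), a log2 difference of -0.58 ± 0.23 (SE, 95% interval -1.11 to -0.05), or 0.668 of the control level. In limma its unadjusted p was 0.0353 and its Benjamini-Hochberg adjusted p 0.9996. It ranked 67 by p among all probes tested.

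ASCRP4007939 covers the long downstream stretch of Arpp21. Its relative log2 signal was -0.96, 0.05 and -0.17 in cocaine CPP replicates 2, 3 and 4, and 0.42, -0.01 and 0.09 in control replicates 1, 5 and 6. The groups overlapped, since cocaine CPP replicate 3 lay above control replicate 5, and cocaine CPP replicate 2 stood well below the other arrays. The group means were -0.36 ± 0.53 and 0.17 ± 0.22, a log2 difference of -0.53 ± 0.30 (95% interval -1.22 to 0.16) with an unadjusted p of 0.115 and an adjusted p of 0.9996 in limma. At 6.13 to 14.9 times background this circRNA was measured with less room above background than ASCRP4008264, at 18.2 to 62 times.

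ASCRP4001808, the remaining Arpp21 probe, gave -1.58, -0.58 and -0.39 in cocaine CPP and -0.20, -0.26 and -0.56 in control, in the same replicate order. Cocaine CPP replicate 2 was again the lowest array, and cocaine CPP replicate 4 lay above control replicate 6, so the groups overlapped. The log2 difference was -0.51 ± 0.33 (95% interval -1.27 to 0.26), with an unadjusted p of 0.164 and an adjusted p of 0.9996 in limma. It is the dimmest of the 5, at 4.34 to 11.8 times background.

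To ask whether the 3 Arpp21 circRNAs differed unequally, the log2 ratio of each pair was taken within each array. The ratio of ASCRP4008264 to ASCRP4007939 was 2.07 ± 0.26 in cocaine CPP and 2.12 ± 0.22 in control (SD, n = 3), a difference of -0.05 (exact permutation test, two-sided, p = 0.5, adjusted over the 3 pairs 0.7). The ratio of ASCRP4008264 to ASCRP4001808 was 2.56 ± 0.41 and 2.64 ± 0.01, and that of ASCRP4007939 to ASCRP4001808 was 0.49 ± 0.23 and 0.51 ± 0.22, differences of -0.08 and -0.02 (exact permutation test, both p = 0.7 and adjusted 0.7). The smallest p that 3 arrays against 3 allow is 0.1, so that these tests could not have passed a threshold of 0.05. The first ratio spanned 1.90 to 2.37 in cocaine CPP and 1.99 to 2.37 in control. No unequal difference between the Arpp21 circRNAs was detectable, and within the first slide row the sign of all 3 values turned, to 0.24, 0.35 and 0.11.

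The Pde7b probe gave 0.53, 0.39 and 0.84 in cocaine CPP replicates 2, 3 and 4, and 1.23, 1.21 and 0.73 in control replicates 1, 5 and 6. Control replicates 1 and 5 were above all 3 cocaine CPP arrays, and control replicate 6 lay within their range. The group means were 0.59 ± 0.23 and 1.06 ± 0.28 (SD, n = 3), a log2 difference of -0.47 ± 0.24 (95% interval -1.02 to 0.08), or 0.723 of the control level, with an unadjusted p of 0.0860 and an adjusted p of 0.9996 in limma.

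The Rgs7bp probe gave 1.85, 1.97 and 1.68 in cocaine CPP and 2.42, 1.95 and 2.09 in control, in the same replicate order. Control replicate 1 stood above the other 5 arrays, and control replicate 5 lay just under cocaine CPP replicate 3. The group means were 1.83 ± 0.15 and 2.16 ± 0.24, a log2 difference of -0.32 ± 0.22 (95% interval -0.83 to 0.18), or 0.800 of the control level, with an unadjusted p of 0.181 and an adjusted p of 0.9996 in limma. This was the smallest of the 5 differences in the reported setting. With normexp ASCRP4001808 was smaller, at -0.30 against -0.38 for Rgs7bp. Without cocaine CPP replicate 2 it was smaller too, at -0.14 against -0.33.

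**Figure D2:**
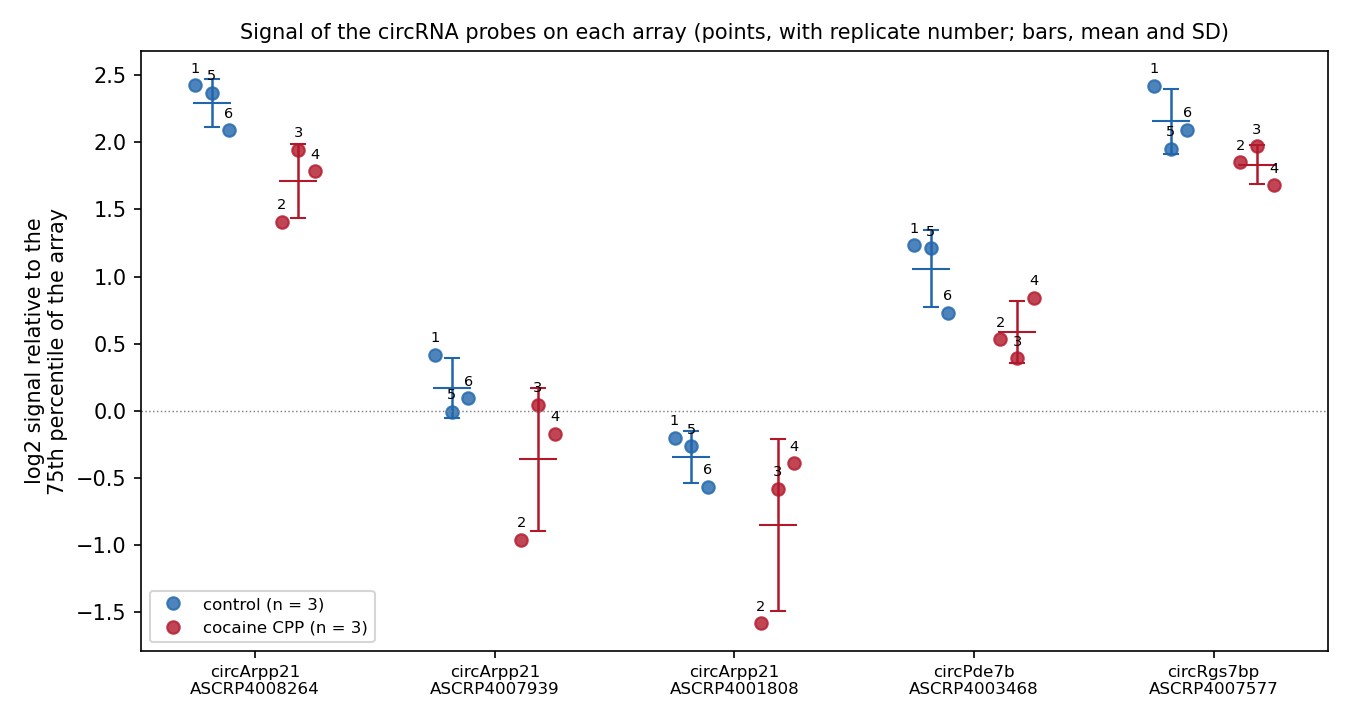
Relative log2 signal of the 3 Arpp21 probes, the Pde7b probe and the Rgs7bp probe on each array; points carry the replicate number, horizontal bars are group means and whiskers are SDs (n = 3 per group). The groups are apart for ASCRP4008264 alone, control replicate 1 is the highest array for all 5 probes, and cocaine CPP replicate 2 is the lowest for the 3 Arpp21 probes.

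Over all probes tested, 0.780% had an unadjusted p under 0.05 in limma, and 0.479% did so with lower signal after cocaine CPP (62 probes, against 39 higher), and 1 of the 4 members did. That background moved with single arrays, to 366 lower and 76 higher without cocaine CPP replicate 4, 236 and 289 without cocaine CPP replicate 2, 23 and 23 without control replicate 1, and 52 and 114 without cocaine CPP replicate 3. Groups without overlap in either direction were found for 3.59% of all probes. A log2 difference below 0 was found for 54.1% of all probes and for 4 of 4 members. The host genes of annotated probes are not a random draw: of the 654 tested probes on the HuD-bound list, 68.5% were lower, with a median log2 difference of -0.08. These became 57.8% and -0.02 without control replicate 1, 55.8% and -0.03 without cocaine CPP replicate 3, 52.1% and -0.02 within the first slide row, 57.6% and -0.04 with normexp, a model-based background correction, and 61.3% and -0.05 with no background subtraction. Normexp and the setting with no background subtraction also took the spot's median signal in place of the processed signal. Since the members were chosen with results of these data known, none of these counts is a test of the group.

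The 5 probes did not rest equally on the 6 arrays. The mean deviation from each probe's own 6-array mean was -0.58 for cocaine CPP replicate 2, -0.07 for replicate 3 and -0.08 for replicate 4, and 0.43, 0.23 and 0.06 for control replicates 1, 5 and 6. Cocaine CPP replicate 2 and control replicate 1 were therefore the outer arrays. Without cocaine CPP replicate 2 the differences of the Arpp21 probes became -0.43 for ASCRP4008264 (unadjusted limma p 0.107, 5 arrays in the fit), -0.23 for ASCRP4007939 and -0.14 for ASCRP4001808, while Pde7b stood at -0.44 and Rgs7bp at -0.33. The unadjusted limma p of ASCRP4008264 was also above 0.05 without control replicate 1 (p 0.108, log2 difference -0.52) and without control replicate 5 (p 0.0987, -0.54). Rgs7bp moved to -0.19 without control replicate 1.

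Within the first slide row, which sets cocaine CPP replicate 2 alone against the 3 controls, the log2 differences were -0.89 for ASCRP4008264, -1.13 for ASCRP4007939, -1.24 for ASCRP4001808, -0.52 for Pde7b and -0.30 for Rgs7bp. The second row held samples of cocaine CPP only and gives no value. Of 19 alternatives of processing and of arrays left out, 14 gave differences distinct from the reported ones and from each other; all 70 of those differences of the 5 probes were below 0. They reuse the same 6 arrays. The lowest adjusted p in limma over all alternatives was 0.800.

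**Figure D3:**
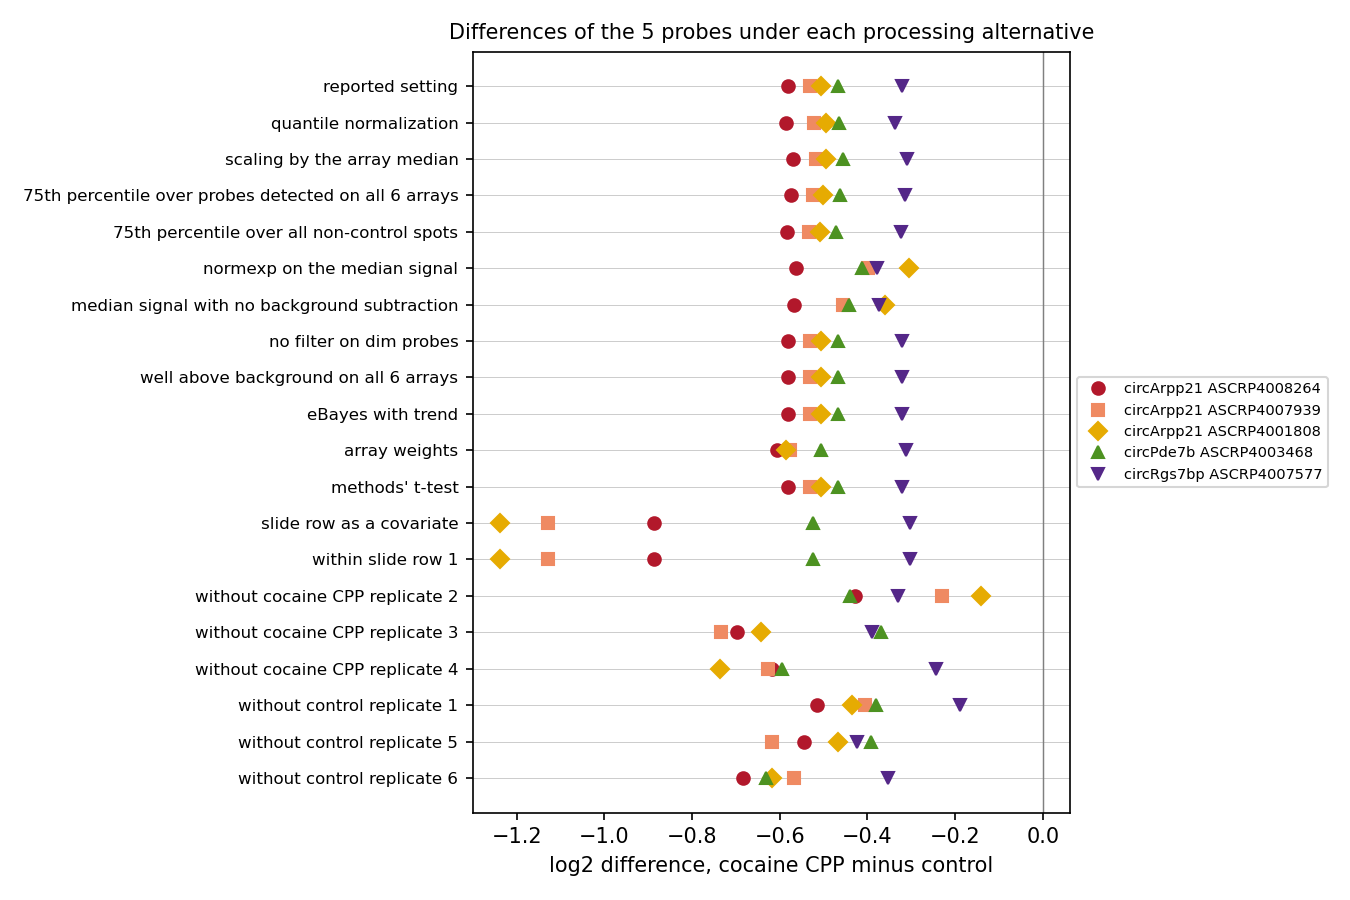
Log2 difference, cocaine CPP minus control, of the 5 probes (symbols) under the reported setting and each of the 19 alternatives. All points lie below 0, though 4 alternatives cannot move the difference; the 3 Arpp21 probes run from -1.24 within the first slide row to -0.14 without cocaine CPP replicate 2, and Pde7b and Rgs7bp stay between -0.63 and -0.19.

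R3hdm1 encodes a protein with the same R3H type of RNA-binding domain as the long Arpp21 product. Its 3 circRNA probes had log2 differences of -0.08 ± 0.21, -0.03 ± 0.24 and -0.12 ± 0.34 (SE), each with overlapping groups and an adjusted p of 0.9996 in limma. All 3 were below 0, but 2 of 3 without control replicate 5 and 1 of 3 without cocaine CPP replicate 3, without cocaine CPP replicate 4 or within the first slide row. The difference between R3hdm1 and Arpp21 was not tested.

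The other genes of these pathways were read through the annotated circRNA probes of 3 lists, the 5 probes left out. Of all annotated probes tested 68.7% were lower, and of all probes tested 54.1%. Of the cAMP and PKA list, 7 of 31 genes had an annotated probe, Arpp21 and Pde7b among them, and 7 probes of the others were tested; 6 were lower, 1 was higher and 0 passed the test in limma, adjusted or not. Their median log2 difference was -0.08, and the extremes were Prkacb, a catalytic subunit of PKA, at -0.26 ± 0.23 and Creb1, a transcription factor that PKA phosphorylates, at 0.36 ± 0.40. The median was -0.12 (5 of 7 lower) without control replicate 6, -0.11 (4 of 7) without control replicate 5, -0.05 (6 of 7) without control replicate 1 and -0.02 (6 of 7) within the first slide row. Of the G protein and RGS list 12 probes were tested, 5 lower and 7 higher, with a median of 0.03 and 0 past either threshold in limma. Its median had no settled sign: it was 0.11 without control replicate 1 (3 of 12 lower), 0.08 without cocaine CPP replicate 3 (5 of 12), 0.05 without cocaine CPP replicate 2 (5 of 12) and 0.0094 without cocaine CPP replicate 4 (6 of 12), but -0.03 without control replicate 5 (6 of 12), -0.04 without control replicate 6 (8 of 12) and -0.01 within the first slide row (6 of 12). Its extremes were Grm5, a metabotropic glutamate receptor, at -0.18 ± 0.27, and Adrbk2, a kinase of G protein-coupled receptors, at 0.42 ± 0.39. In the reported setting the Pde7b and Rgs7bp differences lay below the lowest probe of the list to which each host gene belongs. For Rgs7bp this was -0.32 ± 0.22 against -0.18 ± 0.27 for Grm5. The members were chosen with results of these data known, so this order is no test. The differences between probes were not tested.

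Calcineurin is the phosphatase that Arpp21 restrains. The phosphatase list holds calcineurin and other serine-threonine phosphatases with their subunits and regulators; 3 of its 12 probes tested belong to Phactr1 and Phactr3, which regulate phosphatase and actin and are not phosphatases. The 12 probes come from 8 genes, so they are not 12 separate genes. All 12 had log2 differences below 0, as had 68.7% of annotated probes and 54.1% of all probes tested. Their median was -0.24. They ran from -0.48 ± 0.32 for Ppp3ca, the catalytic calcineurin subunit, to -0.07 ± 0.24 for Ppp1cb, a catalytic subunit of protein phosphatase 1. None passed an adjusted or an unadjusted threshold of 0.05 in limma, and the groups overlapped for all 12. The second Ppp3ca probe stood at -0.44 ± 0.32, while Ppp3cb, the other calcineurin subunit measured, stood at -0.08 ± 0.25. Without cocaine CPP replicate 4 the count became 7 of 12 and the median -0.09, and within the first slide row 7 of 12 and -0.06. With normexp they were 11 of 12 and -0.15, and with no background subtraction 12 of 12 and -0.15. Without control replicate 1 the median was -0.16, with 12 of 12 below 0.

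**Figure D4:**
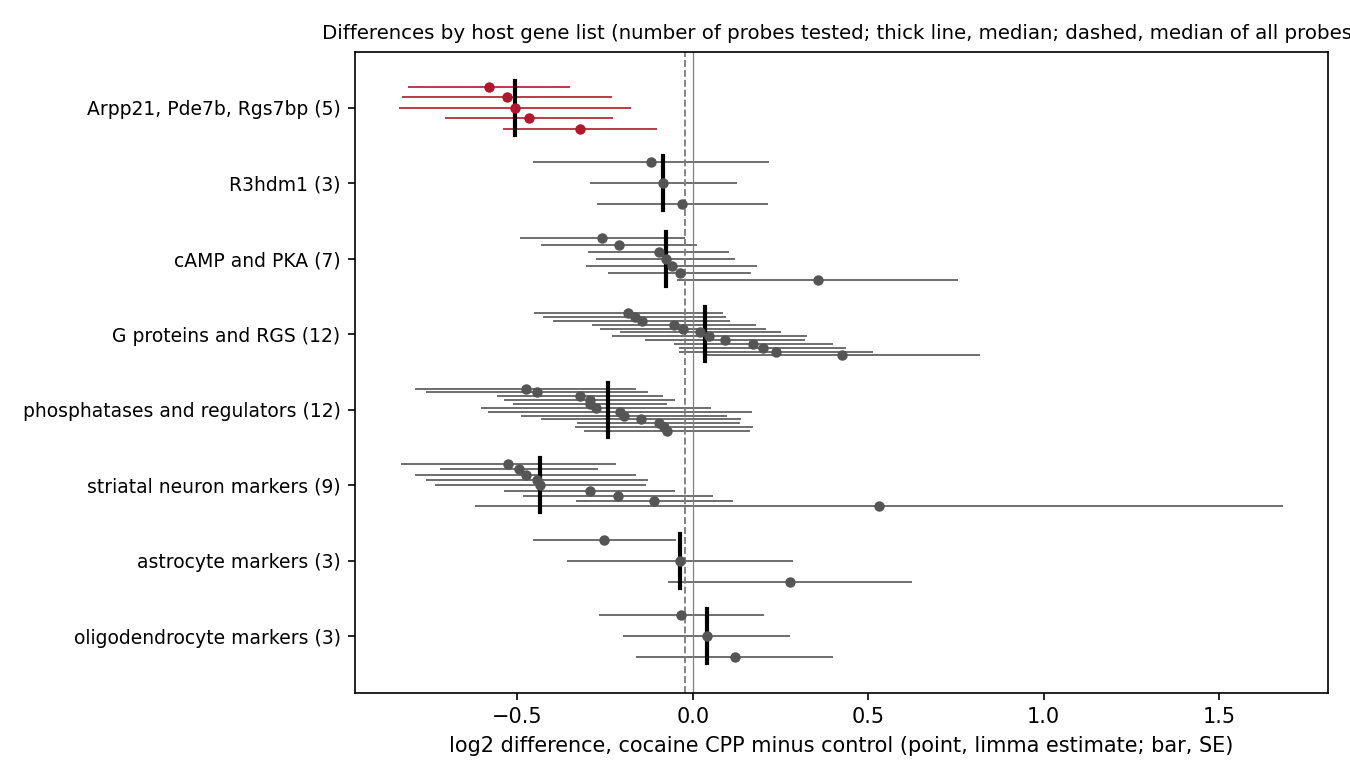
Log2 difference, cocaine CPP minus control, of the 5 probes (red) and of the annotated probes of R3hdm1, 3 pathway lists and 3 lists of cell type markers (grey); bars are SEs, thick lines list medians and the dashed line the median of all probes tested, -0.02. The striatal neuron markers have a median of -0.44, near that of the 5 probes, and 3 probes stand in both the phosphatase and the striatal lists.

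Most markers of striatal projection neurons had lower group means after cocaine CPP, as the 5 probes did. Of 23 marker genes 7 had an annotated circRNA probe, Arpp21 among them. Drd1, Drd2, Penk and Ppp1r1b, which define these neurons, had none, so these probes do not check the labelled tissue. Leaving out Arpp21, 9 probes were tested, all called above background on 6 arrays, as were 10998 of the 12956 probes tested. Of the 9, 8 were lower, with a median log2 difference of -0.44 and 0 past an adjusted or unadjusted p of 0.05 in limma. Lower too were 68.7% of annotated probes and 54.1% of all probes tested. Dgkb, a diacylglycerol kinase of striatal neurons, stood at -0.50 ± 0.23 with groups that did not overlap (unadjusted p 0.0586, adjusted p 0.9996 in limma). Lower without overlap were 2.42% of all probes tested and 4.58% of annotated probes. Strn, which encodes the calmodulin-binding striatin, was the lowest at -0.53 ± 0.31. One Foxp1 probe was the exception, at 0.53 ± 1.15, and the other Foxp1 probes stood at -0.21 and -0.44. Bcl11b, a transcription factor of these neurons, stood at -0.11 ± 0.22.

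The median relative log2 signal over these 9 marker probes was 0.67, 1.25 and 1.41 in cocaine CPP replicates 2, 3 and 4, and 1.76, 1.68 and 1.43 in control replicates 1, 5 and 6. Cocaine CPP replicate 2 was the lowest array and control replicate 1 the highest, as for the Arpp21 probes. The mean over the 9, which the variable Foxp1 probe weighs on, was 0.20, 0.67 and 1.35 in cocaine CPP and 1.03, 1.18 and 0.84 in control, so that the groups overlapped. The median log2 difference of the markers was -0.22 without cocaine CPP replicate 2 and -0.27 without control replicate 1, each with 8 of 9 below 0, and -0.70 without cocaine CPP replicate 4 and -0.67 within the first slide row, each with 9 of 9. In bulk tissue, fewer cells of a type and less RNA per cell cannot be told apart. The part of these markers in the Arpp21, Pde7b and Rgs7bp differences was not tested.

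Markers of other cells lay on both sides of 0. Of 4 cortical neuron probes 2 were lower and 2 higher, with a median of -0.06, and 1 of the 4 had an unadjusted and 0 an adjusted p under 0.05 in limma. Of 3 astrocyte probes 2 were lower, with a median of -0.04, and of 3 oligodendrocyte probes 1 was lower, with a median of 0.04. The interneuron list had 1 probe, Kcnc2, at 0.21 ± 0.51. The part of these cells in the differences was not tested.

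The circRNAs whose pattern was most like each member were sought among the annotated probes that all 6 arrays had called above background, by the root mean square difference of log2 values after each probe's mean was subtracted. For ASCRP4008264 these were circRNAs of Homer1, a synaptic scaffold protein (ASCRP4008138, 0.124), Cdk17 (ASCRP4009827, 0.132) and Lmo7 (ASCRP4007938, 0.142), against a median of 0.409 over all annotated probes. Its own host's second probe, ASCRP4007939, ranked 9, Pde7b ranked 17 and Rgs7bp 31. For ASCRP4007939 the nearest 3 included circRNAs of Arpp21 itself (ASCRP4001808, 0.185) and of Kcnab1, a subunit of potassium channels (0.192), against a median of 0.485.

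Pde7b was most like circRNAs of Cdk17 (ASCRP4005992, 0.107), Tomm70a (0.112) and Tle4 (0.113), against a median of 0.347, and ASCRP4008264 ranked 92 for it. Rgs7bp was most like circRNAs of Galnt13 (0.076), Nucks1 (0.086) and Scamp1 (0.108), against a median of 0.303, with ASCRP4008264 at rank 202. For ASCRP4008264 the Pde7b probe was thus nearer than ASCRP4001808, which ranked 26. Each likeness rests on 6 arrays and is a description. Some of the probes compared were annotated only through the authors' tables of probes higher or lower after cocaine CPP.

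The study also listed host genes whose mRNA HuD binds. Arpp21 was on that list, and Pde7b, Rgs7bp and R3hdm1 were not, while all 5 probes were on the list of HuD-bound circRNAs. The circRNA differences of host genes on both lists and on the circRNA list alone were not compared.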

How the data were processed

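RNA of 6 nucleus accumbens samples was hybridised to 1-colour circRNA arrays. The authors deposited the scanner output (Feature Extraction 11.0.1.1) with an intensity per spot: the spot's median, its local background, and a processed signal with background subtracted. The deposited series tables also hold fold changes, p-values, FDR and group means of the authors' comparison. These were not used, nor were their 24 per-sample columns. From those tables and the HuD-bound list of the study only probe annotation was taken. The tables list probes as higher or lower after cocaine CPP, so which probes have an annotation depends in part on these data. An unadjusted p under 0.05 in limma was found for 16 of the 677 annotated probes tested. On the HuD-bound list it was found for 2 of 654. The submitters' processing notes name limma.

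Log2 of the processed signal minus the array's 75th percentile over circRNA probes was computed. Values of 19 spots marked as outliers were dropped. A probe entered the fit if 3 or more of the 6 arrays called it well above background (12956 probes). The model was fitted by limma 3.58.1 under R 4.3.3 (lmFit, eBayes; two-sided; Benjamini-Hochberg, threshold 0.05) after it had been tested on simulated data. Background subtraction widens differences of dim probes, and scaling removes any change common to all probes. For arrays, their number limits the precision.

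Members and lists were chosen with earlier results of these data known. Named were the members, other annotated probes of their host genes, R3hdm1, the 3 nearest patterns per member, and the highest and lowest probe of each list, with all probes of short lists; the values of 2 circRNAs that this rule names are not reported here. The other list probes named (the second Ppp3ca probe, Ppp3cb, Phactr1, Phactr3, Dgkb, Bcl11b and the other Foxp1 probes) were chosen after their values were seen. Sequences and coordinates come from the study's annotation, with starts raised by 1 to count from 1. The alternatives were other scalings, quantile normalization, other filters, a mean-variance trend, array weights, the methods' t-test, slide row and each array left out. Further alternatives were normexp (offset 50) and no background subtraction, both on the spot's median in place of the processed signal.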

Additional observations from a re-analysis of the deposited data

How the results depend on the processing

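The log2 differences of the 5 probes were below 0 in all 70 values of the 14 alternatives that gave distinct differences; 4 of the 19 change the test or the filter and not the difference, and slide row as a covariate gives the value within the first row. They ranged from -0.89 to -0.43 for ASCRP4008264, -1.13 to -0.23 for ASCRP4007939, -1.24 to -0.14 for ASCRP4001808, -0.63 to -0.37 for Pde7b and -0.42 to -0.19 for Rgs7bp. With normexp the dimmer Arpp21 probes stood at -0.40 (ASCRP4007939) and -0.30 (ASCRP4001808), and ASCRP4008264 at -0.56. ASCRP4008264 had an unadjusted p under 0.05 in 16 of 19 alternatives, by limma in all of these but the methods' t-test; the 16 include the fit within the first slide row and the slide row covariate, which both rest on cocaine CPP replicate 2 alone against the controls and assume that it varies like the other arrays. With normexp 33.9% of all probes were below 0, against 54.1% as reported, and the median of all probes was 0.06; without background subtraction these were 38.9% and 0.05.

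The count of probes with an unadjusted p under 0.05, 101 as reported, was 14 with normexp, 22 with no background subtraction, 50 with probes well above background on all 6 arrays, 56 with a mean-variance trend, 188 with no filter (65 lower, 123 higher, against 62 and 39 as reported), 188 by the methods' t-test and 277 with slide row as a covariate, 636 within the first slide row, and 46 to 525 with 1 array left out (525 without cocaine CPP replicate 2, 442 without replicate 4, 166 without replicate 3, 46 without control replicate 1). The adjusted count was 1 with slide row, 2 within the first slide row and 0 with 1 array left out.

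The pair ratios of Arpp21 changed sign: with slide row as a covariate, and within the first slide row, they were 0.24 for ASCRP4008264 to ASCRP4007939, 0.35 for ASCRP4008264 to ASCRP4001808 and 0.11 for ASCRP4007939 to ASCRP4001808. With 1 array left out they ran from -0.20 to 0.074, -0.29 to 0.12 and -0.15 to 0.11 in that order. The cause was not tested. No paired analysis was possible because replicate numbers differ between cocaine CPP and control. The limits are 3 arrays per group, 1 dim cocaine CPP array and a slide row that holds no control array, and the dimmest probe lay at 4.34 times background on that dim array.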
